A study of Homo sapiens with 3 samples.

Results

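The plasminogen activation system was examined in the human melanoma line SK-Mel-28 through 9 genes: PLAT, PLAU, PLAUR, PLG, PLGRKT, ANXA2, S100A10, ENO1 and LRP1. They were chosen because melanotransferrin (MELTF), the protein that the study targeted, is known to bind plasminogen, and the rule that selects them uses no measured value. Earlier results of these data were known when the genes were chosen. All probe sets whose platform annotation names 1 of these genes were taken, which gave 26 of 54613 probe sets (9 of the 19775 genes that have a probe set of their own). Of the 26, 24 name a member alone and 2 name a member together with another gene. Total RNA was hybridised, in 1 colour, to Affymetrix U133 Plus 2.0 arrays, with 1 array of cells stably transfected with a scrambled hairpin and 2 arrays, labelled B1 and B2, of cells stably transfected with a hairpin siRNA against MELTF. Both hairpins were expressed from the vector pSilencer 3.1-H1 neo, so that all cells compared carry the vector. The hairpin's target in MELTF mRNA is given as positions 2048 to 2066 in the sample labels and as 2031 to 2049 in the series' design text. The labels do not say whether B1 and B2 are separate clones, cultures or transfections, so the spread between them may be technical, and the scrambled array has no replicate.

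Plasminogen, the product of PLG, is an inactive protease precursor made mainly by the liver. Tissue-type plasminogen activator (PLAT) and urokinase (PLAU) cut it into plasmin, which degrades fibrin and pericellular matrix and activates other proteases and growth factors. Cells focus this reaction at their surface through the urokinase receptor (PLAUR) and through plasminogen-binding proteins, among them the complex of ANXA2 with S100A10, surface enolase (ENO1) and PLGRKT. LRP1 takes up activators bound to their inhibitors and delivers them for degradation. Many melanoma lines make tissue-type plasminogen activator, and plasmin formation is a known property of invasive tumour cells.

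Differences are given on the log2(signal + 47.4) scale, where 47.4 is the 25th percentile of all signals, as the mean of both siRNA arrays minus the scrambled array with the standard error (SE) of the limma fit; this scale understates changes of dim probe sets. Testing was limited to the brighter 50% of probe sets by mean log2 value, and a call is a Benjamini-Hochberg adjusted p under 0.05 over 27306 probe sets. The median probe set tested lay 0.11 higher on the siRNA arrays, so a member at 0 was slightly below the middle of all probe sets. Median signals were between 160.6 and 199.5, and siRNA arrays B1 and B2 correlated with each other at r = 0.969 and with the scrambled array at r = 0.948 and 0.936, across probe sets, which are not independent replicates. Ribosomal RNA control probe sets had a median ratio to the scrambled array of 3.76 on B1 and 1.06 on B2. Melanocyte genes were bright on every array: 8 of 9 listed markers were measured, all 8 above the highest bacterial trp control signal (97.2), though not all level between arrays. MLANA read 61769, 63275 and 69169 on the scrambled, B1 and B2 arrays, whereas the pigment enzyme gene TYRP1, the 1 of the 8 called, fell from 53204 to 5022 and 12370 (log2 difference -2.75 ± 0.45, SE; limma adjusted p = 0.0374). That call was lost with robust moderation, quantile normalization, either other filter and no trend, at adjusted p of 0.0521 to 0.164. TYR read 19988 against 35193 and 37555 (0.86 ± 0.17; adjusted p = 0.0529), and MITF 52684 against 42992 and 34223 (-0.46 ± 0.19; adjusted p = 0.236). None of 6 epithelial markers exceeded that level on all arrays, and 1 of 6 endothelial, 3 of 6 leukocyte and 4 of 8 fibroblast markers did. The summed fibroblast marker signal was 2201 on the scrambled array, 5903 on B1 and 6362 on B2. LUM, a proteoglycan gene, was the 1 fibroblast marker called (598.6 against 4850 and 4841; limma adjusted p = 0.00719, and 0.0584 with no filter and 0.120 without the trend), and the other 7 all had mean differences below 0, with a sum of 1602, 1053 and 1521. The part of these markers in the member readings was not tested.

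MELTF itself was measured by 4 probe sets that went in different directions. Its brightest read 32608 with the scrambled hairpin, 18968 on B1 and 18974 on B2 (log2 difference -0.78 ± 0.17, SE; limma adjusted p = 0.0699). The next read 8284 against 10567 and 11199 (0.39 ± 0.20; adjusted p = 0.318), and the others 915.2 against 699.7 and 283.6, and 546.4 against 693.7 and 665.7. No MELTF probe set passed the threshold, so the array values show unequal changes of its probe sets and no called decrease.

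None of the plasminogen-system genes was called. Of the 14 member probe sets past the filter, which cover 7 genes, 0 passed the limma threshold, against 2.09% of all probe sets tested. An unadjusted p under 0.05 was found for 2, against 20.2% of all. The 14 sets are too few to set apart from those shares. The smallest log2 difference called anywhere was 0.90 in size, which only PLGRKT exceeded among the 14. The lack of calls therefore does not show that the genes were unchanged. The largest difference was in PLGRKT, whose single probe set was lower on both siRNA arrays, at 51.0% of the scrambled signal on average. The PLAUR probe sets went both ways, and the ANXA2 probe sets of high signal averaged 74.7% to 79.3% of the scrambled signal. Confidence intervals of those ANXA2 sets included 0, as did those of the tested PLAT, ENO1, S100A10 and LRP1 sets and the brighter PLAUR sets. RNA from a whole culture cannot tell less RNA per cell from fewer cells that make it. PLG and PLAU had no probe set past the filter. At least 2-fold differences on both siRNA arrays were seen for 0 of the 14, against 5.76% of all, again too few sets to tell apart from that share.

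**Figure D1:**
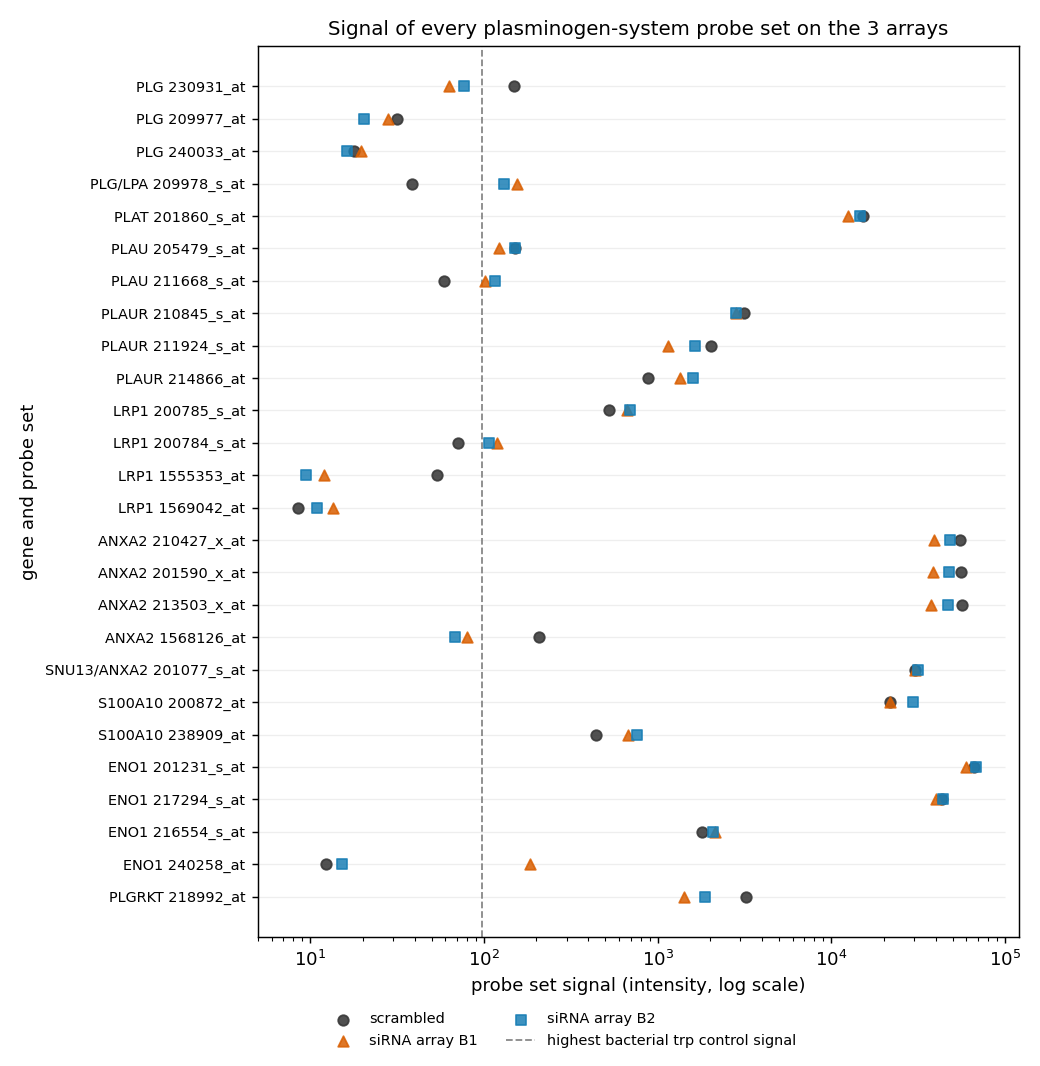
Signal of all 26 probe sets that name a plasminogen-system gene (vertical axis, gene and probe set) on each array (horizontal axis, intensity on a log scale); circles are the scrambled array, triangles siRNA array B1 and squares siRNA array B2, and the dashed line is the highest bacterial trp control signal, 97.2. The ANXA2, S100A10, ENO1 and PLAT probe sets of highest signal lie far above the line on every array, whereas the PLG probe sets lie near or below it.

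The zymogen gene PLG was close to the level of the bacterial controls, which measure an RNA that human cells do not make and which read 7.0 to 97.2. Probe set 209977_at read 31.7 with the scrambled hairpin, 28.1 on B1 and 20.4 on B2. Probe set 240033_at read 17.9, 19.5 and 16.3, so that both sets were under 97.2 on every array. The third, 230931_at, read 149.1 on the scrambled array against 63.2 and 76.8, at least 1.53-fold lower when every signal is raised to at least 97.2. Folds written as "at least" here compare the scrambled signal with the geometric mean of the siRNA signals after that step, and they carry no test because these probe sets did not pass the filter. A further probe set, 209978_s_at, names PLG together with LPA, the plasminogen homologue that forms lipoprotein(a). It read 38.4 with the scrambled hairpin, 155.9 on B1 and 130.6 on B2, at least 1.47-fold higher, and cannot be assigned to either gene. The probe set shared with LPA was thus higher where 230931_at was lower.

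The liver markers that would accompany plasminogen-making cells were also low: of 5 listed, 1 (SERPINA1) passed the filter and 1 (TF) exceeded 97.2 on every array, and the summed signal of the 5 was 669 on the scrambled array, 327.2 on B1 and 1129 on B2. Albumin (ALB) read 70.2, 12.1 and 99.5. Their part in the PLG readings was not tested.

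Tissue-type plasminogen activator was read far above the bacterial controls. The single PLAT probe set, 201860_s_at, read 15222 with the scrambled hairpin, 12425 on B1 and 14568 on B2. Both siRNA values were below the scrambled one, at 81.6% and 95.7% of it. The log2 difference of -0.18 ± 0.20 (SE) had a 95% confidence interval of -0.64 to 0.29 (limma adjusted p = 0.675). It lay at percentile 28.5 of all probe sets tested.

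Urokinase was near the limit of these arrays. PLAU probe set 205479_s_at read 150.1 on the scrambled array, 122.3 on B1 and 150.5 on B2, so that B1 was lower and B2 level with it. The other, 211668_s_at, read 58.9 against 101.1 and 115.8, at least 1.11-fold higher. Neither passed the filter, and when no filter was applied their adjusted p by limma was 0.965 and 0.734. As the sets differ in direction at low signal, no direction is given for PLAU.

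The urokinase receptor gene PLAUR was measured by 3 probe sets that disagreed. The brightest, 210845_s_at, read 3162 with the scrambled hairpin, 2822 on B1 and 2844 on B2, a log2 difference of -0.16 ± 0.23 (SE; limma adjusted p = 0.762). The second, 211924_s_at, read 2024 against 1153 and 1636 (-0.54 ± 0.30; adjusted p = 0.359). The third, 214866_at, read 876.7 against 1343 and 1608 (0.72 ± 0.27; adjusted p = 0.205). In each of the 3 sets both siRNA arrays lay on the same side of the scrambled array, below it in the brighter sets and above it in the dimmest. Of all probe sets tested, 30.9% were below it on both arrays and 46.4% above it on both, so this is a common pattern. The differences spanned 1.26 on the log2 scale from the lowest to the highest set. Among the 1600 genes with 3 probe sets past the filter the median span was 0.52, and that of PLAUR lay at percentile 93.8. By comparison the 3 ENO1 sets spanned 0.28 and the 3 ANXA2 sets 0.086, at percentiles 22.7 and 3.0. Which transcripts of PLAUR each set detects was not analysed here, and a mean over the sets would hide their opposite directions.

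LRP1, the endocytic receptor that clears activator and inhibitor complexes, had 1 probe set past the filter, 200785_s_at. It read 522.5 with the scrambled hairpin, 670.8 on B1 and 693.7 on B2, so that both siRNA values were higher (log2 difference 0.36 ± 0.30, SE; 95% confidence interval -0.34 to 1.05; limma adjusted p = 0.557). A dimmer set of the same gene, 200784_s_at, was also higher, at 118.8 and 106.4 against 70.6, at least 1.16-fold. The remaining 2 sets were below 97.2 on every array (1555353_at at 53.8 against 12 and 9.5, and 1569042_at at 8.5 against 13.5 and 10.9), where no order of values can be read.

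**Figure D2:**
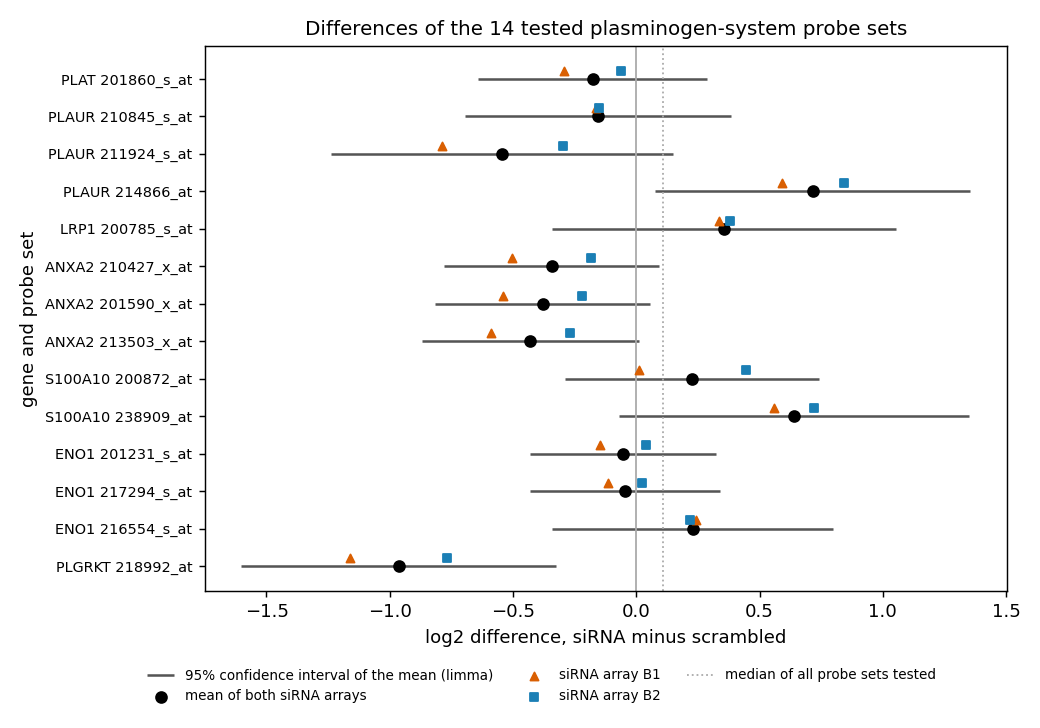
Log2 difference from the scrambled array (horizontal axis) of the 14 tested probe sets that name a member alone (vertical axis); black points are the mean of both siRNA arrays with the limma 95% confidence interval, triangles and squares are siRNA arrays B1 and B2, and the dotted line is the median of all probe sets tested, 0.11. The intervals of PLGRKT and of PLAUR 214866_at exclude 0 before adjustment, on opposite sides, and the other 12 intervals include 0.

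ANXA2 and S100A10 encode the subunits of annexin A2 heterotetramer, in which S100A10 binds the amino-terminal end of annexin A2 and offers a carboxy-terminal lysine to plasminogen. Their bright probe sets did not show the same direction. For ANXA2, 3 probe sets with the suffix _x_at, which marks probes that can also match related sequences, gave nearly the same readings and are not 3 independent measures. Set 213503_x_at read 56356 with the scrambled hairpin, 37423 on B1 and 46775 on B2. Set 201590_x_at read 55749 against 38356 and 47853, and 210427_x_at read 55051 against 38843 and 48432. The scrambled array was highest in all 3 sets, as it was in 30.9% of all probe sets tested, and B1 was lower than B2. Their log2 differences were -0.43 ± 0.19, -0.38 ± 0.19 and -0.34 ± 0.19 (SE), with limma adjusted p of 0.257, 0.311 and 0.357. With each array centred on its median over all probe sets, the 3 sets passed the threshold, at adjusted p of 0.0166, 0.0263 and 0.0365; over all alternatives the first of them ranged from 0.0166 to 0.549. With centring over only the probe sets past the filter, chosen after those calls were seen, 0 member probe sets passed.

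A dim ANXA2 probe set, 1568126_at, read 206.2 with the scrambled hairpin, 80.2 on B1 and 68.2 on B2, at least 2.12-fold lower, with no test because it did not pass the filter. A probe set that names ANXA2 together with SNU13, a gene of the spliceosome, 201077_s_at, read 30180 against 30227 and 31750 (log2 difference 0.038 ± 0.17, SE; adjusted p = 0.931) and cannot be assigned to either. The sets that name ANXA2 alone were thus lower on both siRNA arrays, whereas the shared set was level.

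As deposited, S100A10 was not lower on either siRNA array. Its brightest set, 200872_at, read 21638 on the scrambled array, 21790 on B1 and 29459 on B2 (log2 difference 0.23 ± 0.22, SE; 95% confidence interval -0.29 to 0.74; limma adjusted p = 0.620). B1 was level with the scrambled array, and the higher mean came from B2. The dimmer set, 238909_at, read 444.1 against 676.8 and 763.5 and was higher on both (0.64 ± 0.30; adjusted p = 0.293). Whether ANXA2 and S100A10 differ in their response was not tested, since signals of different probe sets are not set against each other here.

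ENO1, a glycolytic enzyme that binds plasminogen when it reaches the cell surface, was read close to the scrambled level in its 2 brightest sets. Its brightest set, 201231_s_at, read 65944 with the scrambled hairpin, 59490 on B1 and 67730 on B2 (log2 difference -0.055 ± 0.16, SE; 95% confidence interval -0.43 to 0.32; limma adjusted p = 0.893). The next, 217294_s_at, read 43415 against 40042 and 44162 (-0.046 ± 0.16; adjusted p = 0.913). In both sets the scrambled value lay between B1 and B2, and with quantile normalization both means turned to the other side of 0, at 0.052 and 0.044. Another set, 216554_s_at, read 1796 against 2131 and 2096 (0.23 ± 0.24; adjusted p = 0.657). The last, 240258_at, exceeded 97.2 on B1 only, at 183.2 against 12.3 on the scrambled array and 15.3 on B2.

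PLGRKT, a plasminogen receptor that spans the membrane and exposes a carboxy-terminal lysine, had the largest difference among the tested member probe sets. Its only probe set, 218992_at, read 3242 with the scrambled hairpin, 1425 on B1 and 1885 on B2, or 43.9% and 58.1% of the scrambled signal. The log2 difference was -0.96 ± 0.27 (SE), with a 95% confidence interval of -1.60 to -0.33, and it lay at percentile 3.38 of all probe sets tested. It did not pass the threshold (limma adjusted p = 0.113), and over the alternatives run its adjusted p ranged from 0.0569 to 0.230. PLGRKT was below the scrambled value on both siRNA arrays, as 30.9% of all probe sets tested were.

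**Figure D3:**
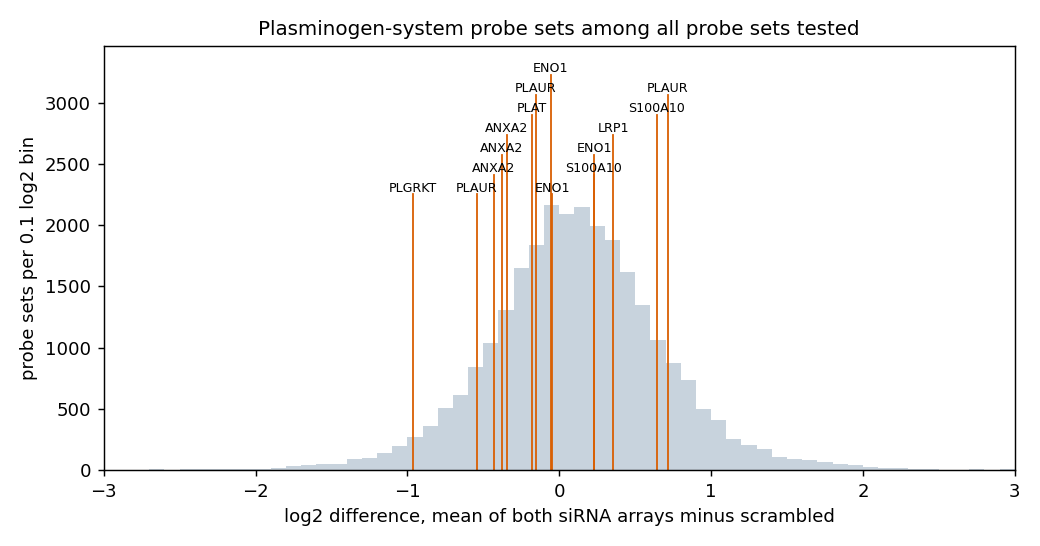
Number of probe sets per bin of 0.1 (vertical axis) by log2 difference between the mean of both siRNA arrays and the scrambled array (horizontal axis, shown from -3 to 3), for all 27306 probe sets tested, with a vertical line at each of the 14 member probe sets. The members lie from PLGRKT at -0.96, percentile 3.38 of all probe sets tested, to a PLAUR probe set at 0.72, percentile 86.9.

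As a group, the members sat slightly below the middle of the array. Over the 14 tested probe sets 9 mean differences were below 0 and 5 above, with a median of -0.11 against 0.11 over all probe sets tested. Of the 14, 12 were among the brightest 25% of probe sets, where the median of all was lower, at 0.031. By gene, with the brightest probe set standing for each of the 9 genes and no filter, 7 were below 0 and 2 above (6 and 3 with quantile normalization), and the median was -0.16 against 0.075 over all genes. That median was -0.22 on B1 and -0.063 on B2, and was 0.0052 when each gene was given the mean of its probe sets. The scrambled array was above both siRNA arrays in 7 of the 14 sets, against 30.9% of all, and below both in 5, against 46.4%. These shares were not matched for brightness. Several of these sets belong to 1 gene, so they do not count as separate observations.

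The sequence upstream of the start site was read for the genes whose readings carry the comparison: PLGRKT for its size, PLAUR for its discordant probe sets, and ANXA2 and S100A10 as partners with unlike readings. RefSeq promoter windows were found for 8 of the 9 genes. The 250 bases before the annotated start are given 5′ to 3′ on the gene's strand, which is minus for all 4, in build GRCh38.p14, with motif matches in capitals. The motifs searched on both strands were the AP-1 site TGANTCA, the GC box GGGCGG and the TATA box TATAAA; overlapping matches were kept.
PLGRKT, chr9:5437926-5438175: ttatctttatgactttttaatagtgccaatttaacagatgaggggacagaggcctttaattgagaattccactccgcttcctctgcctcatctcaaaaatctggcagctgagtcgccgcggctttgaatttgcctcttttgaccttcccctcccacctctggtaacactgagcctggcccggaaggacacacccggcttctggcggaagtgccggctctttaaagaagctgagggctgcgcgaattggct
PLAUR, chr19:43670170-43670419: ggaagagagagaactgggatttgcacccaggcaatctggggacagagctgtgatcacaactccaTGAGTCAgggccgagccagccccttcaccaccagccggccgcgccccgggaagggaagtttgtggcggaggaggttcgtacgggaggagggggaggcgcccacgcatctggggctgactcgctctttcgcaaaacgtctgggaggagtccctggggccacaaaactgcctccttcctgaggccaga
ANXA2, chr15:60397987-60398236: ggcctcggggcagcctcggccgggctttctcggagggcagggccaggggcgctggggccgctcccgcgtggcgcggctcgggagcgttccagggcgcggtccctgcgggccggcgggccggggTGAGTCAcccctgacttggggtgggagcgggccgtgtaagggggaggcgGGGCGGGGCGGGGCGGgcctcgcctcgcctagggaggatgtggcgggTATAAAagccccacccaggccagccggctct
S100A10, chr1:151993860-151994109: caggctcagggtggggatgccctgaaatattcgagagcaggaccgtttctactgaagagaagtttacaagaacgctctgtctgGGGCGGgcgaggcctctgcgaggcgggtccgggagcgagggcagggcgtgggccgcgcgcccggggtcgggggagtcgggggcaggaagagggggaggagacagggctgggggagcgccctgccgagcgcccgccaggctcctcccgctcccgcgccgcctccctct
The AP-1 site is bound by FOS and JUN family proteins, the GC box by SP1-type zinc finger proteins, and the TATA box by the general transcription machinery. PLAUR and ANXA2 held an AP-1 match each, which begin 186 and 127 bases before the start, and these were the 2 of the 8 genes with one; 6.57% of all 35116 windows of this length hold it. ANXA2 also held 3 overlapping GC boxes from 78 bases before the start and a TATA box 31 bases before it, whereas S100A10 held 1 GC box and PLGRKT none of these letters. The GC box was found in 5 of the 8 genes and in 42.6% of all windows, the TATA box in 1 of the 8 and in 10.7%. The 8 genes have 10 windows, so counts by gene are not directly comparable with shares by window. These matches describe the letters of the window. The 4 genes were picked by their array readings, none of them called, and the matches were not tested against those readings.

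Other genes of the system were read from lists of inhibitors, further activators, receptors and partners, clearance receptors, and substrates of plasmin or its activators. Of 73 listed genes 68 had a probe set of their own, 52 passed the filter, and 3 passed the limma threshold, 1 higher and 2 lower, against 2.64% of all 12386 genes tested. At an unadjusted p under 0.05 there were 14 of the 52, against 22.9% of all genes tested. The values of 2 of them, TFPI2 and BDNF, were known when the lists were drawn up. The remaining 5 listed genes were not analysed here. All 3 calls were lost when moderation used no trend, and when the filter was dropped or raised to the brightest 25%. The median difference over the 68 genes was 0.097 against 0.075 over all genes.

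Among inhibitors, TFPI2, a Kunitz-type inhibitor of plasmin and other serine proteases, fell from 28363 on the scrambled array to 3356 and 1446 (log2 difference -3.66 ± 0.43, SE; limma adjusted p = 0.0198). Its other probe set fell from 14685 to 1341 and 609.8 (adjusted p = 0.0180). It was the 1 called gene of 9 measured inhibitors, of which 6 passed the filter, against 2.64% of all genes tested. The value of TFPI2 was known when the list was drawn up, so the count is no measure of enrichment. SERPINE2, protease nexin-1, which inhibits urokinase, tissue-type activator and plasmin, read 66901 against 42662 and 48463 (-0.56 ± 0.17; adjusted p = 0.124). A2M, a broad protease trap, read 5454, 12058 and 5805, high on B1 only. The direction of these inhibitors was therefore mixed, with TFPI2 far below its scrambled level on both arrays.

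None of 6 further activating proteases past the filter was called, and 0 had an unadjusted p under 0.05 by limma, where 2.64% and 22.9% of all genes tested did; 6 genes are too few to set apart from those shares. CTSB, a cathepsin that can activate pro-urokinase, read 32281 against 37493 and 34653 (adjusted p = 0.653). CTSL read 14880 against 11937 and 10771 (adjusted p = 0.315), and the kallikrein gene KLK1 read 243.0 against 314.6 and 534.0 (adjusted p = 0.423). Of 17 receptors and partners past the filter 0 were called and 4 had an unadjusted p under 0.05, a share near the 22.9% of all genes tested. The integrin subunit gene ITGB1 read 17042 against 22781 and 24396 (0.47 ± 0.18; adjusted p = 0.203). FN1, fibronectin, read 58924 against 41441 and 50441 (adjusted p = 0.310), and HMGB1, a chromatin protein that binds plasminogen outside the cell, read 34510 against 27560 and 25876 (adjusted p = 0.279). ITGB1 was higher on both siRNA arrays, and FN1 and HMGB1 were lower on both.

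Clearance genes, the family and adaptors of LRP1, lay above 0 in 7 of 8, as 56.5% of all genes did, with a median of 0.35 against 0.075 over all genes. By limma 0 of the 8 were called and 2 had an unadjusted p under 0.05, near the 22.9% of all genes tested. With quantile normalization or centring 6 of the 8 lay above 0, against 42.4% to 50.7% of all genes. The exception was DAB2, an endocytic adaptor of LDL receptor family tails, which read 21850 against 13405 and 10689 (log2 difference -0.87 ± 0.21, SE; limma adjusted p = 0.0825). LRPAP1, the chaperone of LRP1, read 4653 against 5618 and 6255 (0.35 ± 0.22; adjusted p = 0.421), and SNX17, a sorting nexin that recycles LRP1, read 6137 against 7924 and 8363 (0.40 ± 0.20; adjusted p = 0.321). LRP1 itself, LRPAP1 and SNX17 were higher on both siRNA arrays without passing the test, and DAB2 was lower on both. Of all probe sets tested, 46.4% were higher on both.

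**Figure D4:**
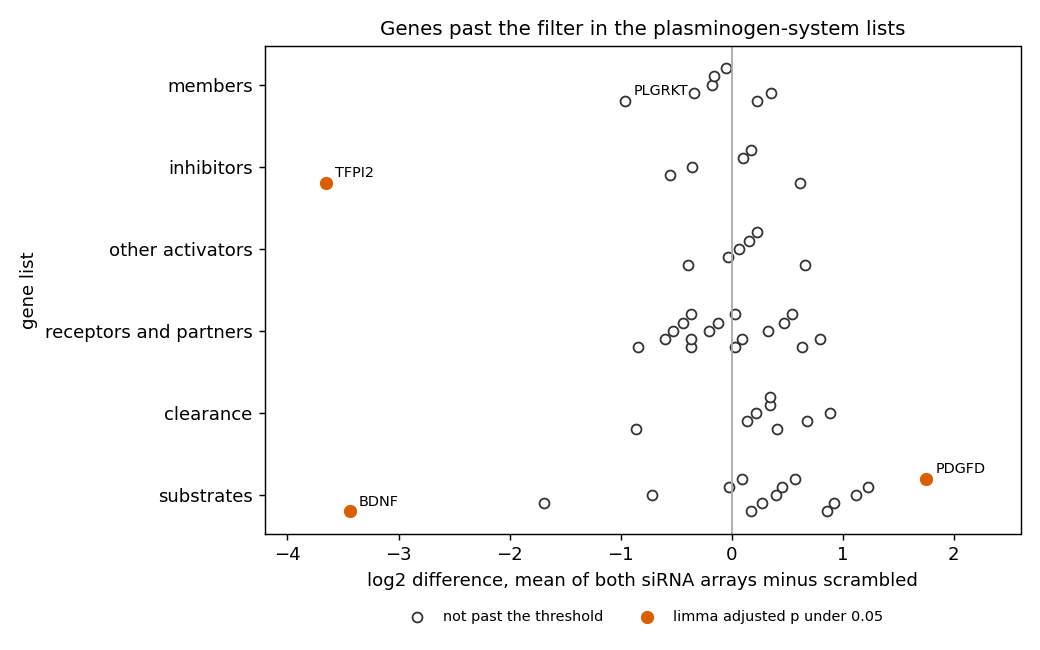
Log2 difference between the mean of both siRNA arrays and the scrambled array (horizontal axis) for each gene past the filter, by its brightest probe set, in the members and the other lists (vertical axis; the vertical offset within a list only separates points). Filled points are the 3 genes with limma adjusted p under 0.05, TFPI2 and BDNF lower and PDGFD higher; no member is filled.

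Substrates of plasmin and its activators held the other 2 calls, among 15 past the filter, against 2.64% of all genes tested. The value of BDNF, 1 of the 2, was known when the list was drawn up, so the count is no measure of enrichment. PDGFD, a platelet-derived growth factor that urokinase or plasmin must cleave to become active, rose from 379.9 to 1272 and 1524 (log2 difference 1.75 ± 0.29, SE; limma adjusted p = 0.0369), and its dimmer set read 69.7 against 427.6 and 215.6 (adjusted p = 0.141). The call of PDGFD was lost with quantile normalization. BDNF, a neurotrophin whose precursor plasmin can cut, fell from 4089 to 253.5 and 438.5 (-3.44 ± 0.36; adjusted p = 0.0178). THBS1, a matrix glycoprotein that interacts with plasminogen and its activators, read 470.5 against 107.5 and 118.8 (-1.69 ± 0.43; adjusted p = 0.0915), more than 2-fold lower on both arrays. MMP14, a membrane-bound matrix metalloproteinase, read 1173 against 2035 and 2312 (0.86 ± 0.25; adjusted p = 0.123). The laminin chain genes LAMC1 (6719 against 6082 and 8419) and LAMA4 (2687 against 2318 and 3955) were lower on B1 and higher on B2.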

How the data were processed

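The authors deposited 1 probe set signal intensity per array on a linear scale, made with GCOS 1.3 per the submitters' processing notes. In the deposited values the mean signal without the top and bottom 2% was near 1000 on every array (1000.12 to 1000.14), which shows a common scaling; detection calls and further software settings were not used here. Of 54675 rows, 62 are controls and were not tested. The platform annotation named 1 gene for 41091 probe sets, several for 1801 and none for 11721.

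Signals were fitted as log2(signal + 47.4) with limma 3.58.1 in R 4.3.3 (lmFit, eBayes with trend), siRNA minus scrambled, where the mean log2 value exceeded 7.74. The fit was tried on simulated data whose arrays all varied alike, which cannot check whether the scrambled array does. The spread comes from the siRNA arrays alone (1 residual degree of freedom, plus 6.36 from moderation), the lone scrambled array is assumed to vary like them, and the number of arrays limits the precision. The level of 97.2, the highest bacterial trp control signal, was known from earlier results. Members, lists and alternatives were chosen with earlier results of these data known. The brightest probe set on average stood for each gene. All member probe sets were named, and of other lists the genes called, those at least 2-fold different on both arrays, and the 3 of highest mean signal.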

Additional observations from a re-analysis of the deposited data

How the results depend on the processing

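Of the alternatives run, those that changed the scaling, the filter or the trend moved counts. Probe sets past the limma threshold numbered 571, against 360 with quantile normalization, 1528 with arrays centred on their medians, 9 with the 75th percentile filter and 1 each with no filter and without the trend. Centring turned the split from 324 higher and 247 lower to 594 and 934, and centring over probe sets past the filter, an alternative chosen after the data were seen, gave 254 and 468. Member probe sets past the threshold numbered 0 in every setting run except centring on all probe sets, which gave 3, all of ANXA2. The member count at least 2-fold on both arrays was 0, and 1 with that centring. Other pathway genes past the threshold numbered 3, against 8 with that centring (SERPINE2, FN1, S100A11, DAB2 and THBS1 in addition, all lower) and 0 with no filter, with the 75th percentile filter or without the trend. The members' gene median moved from -0.16 to -0.33 and -0.32 with the 2 centrings and to 0.0052 with the mean of probe sets. Leaving out 1 siRNA array leaves no residual degrees of freedom, so it gave values only: 2578 to 3379 probe sets at least 2-fold, 0 to 1 of them members, and a gene median of -0.22 to -0.063. In the 2 brightest ENO1 probe sets the difference changed sign with quantile normalization (0.052 and 0.044) and with B1 left out (0.039 and 0.025). In the other 12 tested member sets it kept its sign in every alternative. Among other values of single member probe sets, 177 were labelled the same, 34 of untested dim sets moved and 3 passed the threshold. The ENO1 values with B1 left out are counted in the 177. Part of the 177 was fixed in advance, since a change of filter, trend or moderation leaves the log2 difference itself unaltered. No paired analysis was possible because the scrambled group has 1 array and its label carries no replicate number. Signals below 97.2 limit what can be read for PLG, PLAU and the dim LRP1 sets.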

Other observations

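The siRNA arrays differed from each other mostly in 1 direction across the tested member probe sets, but not across the untested ones. In 13 of the 14 tested member probe sets B2 read higher than B1, against 52.8% of all probe sets tested. Among the 12 member sets among the brightest 25% of the probe sets B2 was higher in 11, against 48.1% of all probe sets of that brightness. The exception was ENO1 216554_s_at, at 2131 on B1 and 2096 on B2. Some of the 13 were nearly level, as PLAUR 210845_s_at at 2822 on B1 and 2844 on B2. The dimmer untested member sets went both ways. ANXA2 1568126_at (80.2 on B1 and 68.2 on B2) and LRP1 200784_s_at (118.8 and 106.4) were higher on B1. PLAU 205479_s_at (122.3 and 150.5) was higher on B2. Several sets belong to 1 gene, and the ratio of ribosomal RNA control signals also differed between the arrays (3.76 on B1 and 1.06 on B2); its part in this pattern was not tested.

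The filter on mean signal left most THBS1 probe sets untested. Set 201110_s_at read 412.2 with the scrambled hairpin, 5.7 on B1 and 8.3 on B2, and 201109_s_at read 339.3 against 19.7 and 26.5, while 215775_at read 161.3, 132.5 and 194.5. These sets were looked at after their values were seen.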
